A study of Mus musculus with 10 samples.

Results

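The 79 genes described here encode the receptors for glutamate, GABA, glycine, acetylcholine and serotonin. They were chosen by symbol from the 20045 gene symbols of the deposited table: Gria (AMPA receptors, 4 genes), Grik (kainate, 5), Grid (delta, 2), Grin (NMDA, 7), Grm without Grm6 (metabotropic glutamate, 7), Gabra to Gabrq (GABA-A, 16), Gabrr (GABA-A rho, 3), Glra (glycine, 4), Chrn (nicotinic acetylcholine, 11 neuronal and 5 muscle genes), Htr3 (serotonin-gated channels, 2) and the other Htr genes (G protein-coupled serotonin receptors, 12). Grid2ip matched the same rule by its symbol, although it encodes delphilin, a scaffold protein and not a receptor subunit, and it is counted by itself.

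Mouse retinas were collected before birth (E17.5, counted in embryonic days) and at postnatal days 1, 7 and 15 (PN1, PN7, PN15), and chromatin was precipitated with antibodies against H3K4me2 or H3K27me3 and sequenced (ChIP-Seq). There was 1 library for each mark and stage, made from at least 20 pooled retinas, so no difference between stages could be set against replicate error and no test between stages was possible. The sample labels name the Pde6b rd1/rd1 mutant strain for every library, whereas the methods of the study describe C57BL/6j mice at these stages and rd1/rd1 mice, which lose their rods, as a separate control. The methods were followed for the strain, and no sex or other treatment was given. The values are normalized occupancies, namely the reads within 2.5 kb of a transcription start site (TSS) relative to all mapped reads of the library, so that every gene is measured over a window of the same length.

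Fast transmission in the retina uses glutamate from photoreceptors and bipolar cells, and GABA and glycine from horizontal and amacrine cells, while acetylcholine is released by starburst amacrine cells. AMPA, kainate and NMDA receptors are glutamate-gated cation channels, GABA-A, rho and glycine receptors are chloride channels, and the metabotropic glutamate receptors and most serotonin receptors act through G proteins. H3K4me2 is found at the promoters of active genes and of genes poised for activity. H3K27me3 is written by Polycomb repressive complex 2 and is found at repressed promoters, often those with many CpG dinucleotides, and promoters with both kinds of mark are called bivalent.

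The 3 rod genes Sag, Pde6b and Nrl ranged from 9 to 35 in H3K4me2 before birth and from 53 to 116 at PN15. The 4 muscle and liver genes Myh1, Ckm, Alb and Apoa1 had 4 to 27 before birth and 0 to 32 at PN15. Among them, Ckm rose from 7 to 32 and Apoa1 fell from 27 to 10, both past the limits given further on. The retina is a mixture of cells, and fewer cells with a mark cannot be told apart from less of the mark in each cell. Of 12 markers of bipolar, amacrine, ganglion and Müller glia cells, 6 (among them Pax6, Chat, Pou4f2 and Rlbp1) fell at least 2-fold in H3K4me2 from E17.5 to PN15, by the rule given further on, and Prkca rose, with a median change of −0.94 relative to all symbols. Their summed H3K4me2 was 741 at E17.5 and 624 at PN15. The part of rod chromatin and of the makeup of the inner retina in the changes of the receptor genes was not tested. The H3K4me2 library of PN7 stood apart from the other 7, as 19.5% of its gene entries were at 0, compared with 0.362% to 2.52% in the other H3K4me2 libraries.

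Promoters with very different CpG content are printed here for the genes on which the results turn. They are the RefSeq promoter windows of the mouse assembly GRCm38.p6, from 250 bases before to 50 bases after the TSS, 5′ to 3′ on the strand of the gene, with every CpG in capitals. Grik3, a kainate receptor subunit, had the largest H3K27me3 sum of all members (chr4:125490446-125490745, plus strand, 50 CpG). Grin1, the obligatory subunit of NMDA receptors (chr2:25319138-25319437, minus strand, 33 CpG), carried both marks at every stage. Chrnb4, a nicotinic subunit (chr9:55048495-55048794, minus strand, 14 CpG), had the largest rise of H3K27me3. Gabrr2, a rho subunit (chr4:33062862-33063161, plus strand, 2 CpG), had the largest rise of H3K4me2, and Gabrr1 is its neighbour on the chromosome (chr4:33132306-33132605, plus strand, 9 CpG).
Grik3: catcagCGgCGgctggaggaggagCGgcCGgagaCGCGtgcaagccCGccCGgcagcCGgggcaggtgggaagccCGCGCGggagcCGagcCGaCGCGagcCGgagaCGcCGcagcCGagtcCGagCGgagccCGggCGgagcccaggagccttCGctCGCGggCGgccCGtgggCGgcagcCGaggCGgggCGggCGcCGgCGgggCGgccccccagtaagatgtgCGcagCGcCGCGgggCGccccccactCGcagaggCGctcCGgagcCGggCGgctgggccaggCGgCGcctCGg
Grin1: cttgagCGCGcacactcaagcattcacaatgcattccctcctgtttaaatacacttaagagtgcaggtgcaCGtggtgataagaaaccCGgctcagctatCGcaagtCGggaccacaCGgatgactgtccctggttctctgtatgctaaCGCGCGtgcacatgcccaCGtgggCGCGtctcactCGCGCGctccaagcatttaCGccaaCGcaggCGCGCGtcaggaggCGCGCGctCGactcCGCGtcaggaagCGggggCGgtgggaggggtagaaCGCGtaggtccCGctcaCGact
Chrnb4: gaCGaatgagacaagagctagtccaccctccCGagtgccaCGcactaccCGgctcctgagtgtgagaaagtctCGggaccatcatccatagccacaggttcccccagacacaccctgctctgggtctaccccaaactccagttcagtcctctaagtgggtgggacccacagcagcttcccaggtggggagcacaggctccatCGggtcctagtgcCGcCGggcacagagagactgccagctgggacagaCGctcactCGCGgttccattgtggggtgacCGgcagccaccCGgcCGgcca
Gabrr2: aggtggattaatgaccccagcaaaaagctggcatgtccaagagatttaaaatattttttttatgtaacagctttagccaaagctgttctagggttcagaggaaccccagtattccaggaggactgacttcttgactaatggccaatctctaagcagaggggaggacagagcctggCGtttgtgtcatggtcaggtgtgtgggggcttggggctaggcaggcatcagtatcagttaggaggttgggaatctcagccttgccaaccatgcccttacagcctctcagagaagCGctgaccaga
Gabrr1: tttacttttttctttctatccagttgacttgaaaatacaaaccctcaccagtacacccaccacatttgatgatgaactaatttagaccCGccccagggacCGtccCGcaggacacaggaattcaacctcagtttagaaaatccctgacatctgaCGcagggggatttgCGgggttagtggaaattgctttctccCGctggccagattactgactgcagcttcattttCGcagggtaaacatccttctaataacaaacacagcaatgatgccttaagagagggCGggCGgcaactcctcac

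Over all 32851 promoter windows of that table the median was 7 CpG per window, and over the 67 windows of the 56 members found in it the median was 11. The other 23 members are not in the table, and over all 79 members and a window of 1 kb the share of CpG-rich promoters was below that of all symbols, as given further on.

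Which of the receptor genes carried the marks was determined first. The background of a mark was set by 1047 olfactory receptor genes, which are not used by retinal neurons, as the largest of the 99th percentiles of its 4 libraries (9.54 for H3K4me2 and 44.08 for H3K27me3). In at least 1 stage, H3K4me2 was above background at 68 of the 79 members, compared with 72.6% of all symbols. H3K27me3 was above background at 40 of the 79 members, 50.6%, compared with 18.3% of all symbols. Both marks were above background in the same stage at 38 members, 48.1%, compared with 16.3% of all symbols. The genes of potassium channel subunits, another large family of neuronal membrane proteins, were similar or higher, as 53 of 91 had H3K27me3 and the same number had both marks in a stage. Neither mark was above background at 9 members (Chrna1, Chrna2, Chrna9, Chrna10, Chrne, Gabra6, Gabrp, Glra4, Htr2b), 11.4%, compared with 25.7% of all symbols. Of these, Glra4 had an H3K27me3 value of 43 at PN7, just under the limit. With the 95th percentile as background 5 members had neither mark, compared with 21.7% of all symbols. A further 30 members had H3K4me2 without H3K27me3, and Chrnd and Chrng, subunits of the muscle receptor, had H3K27me3 without H3K4me2.

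**Figure D1:**
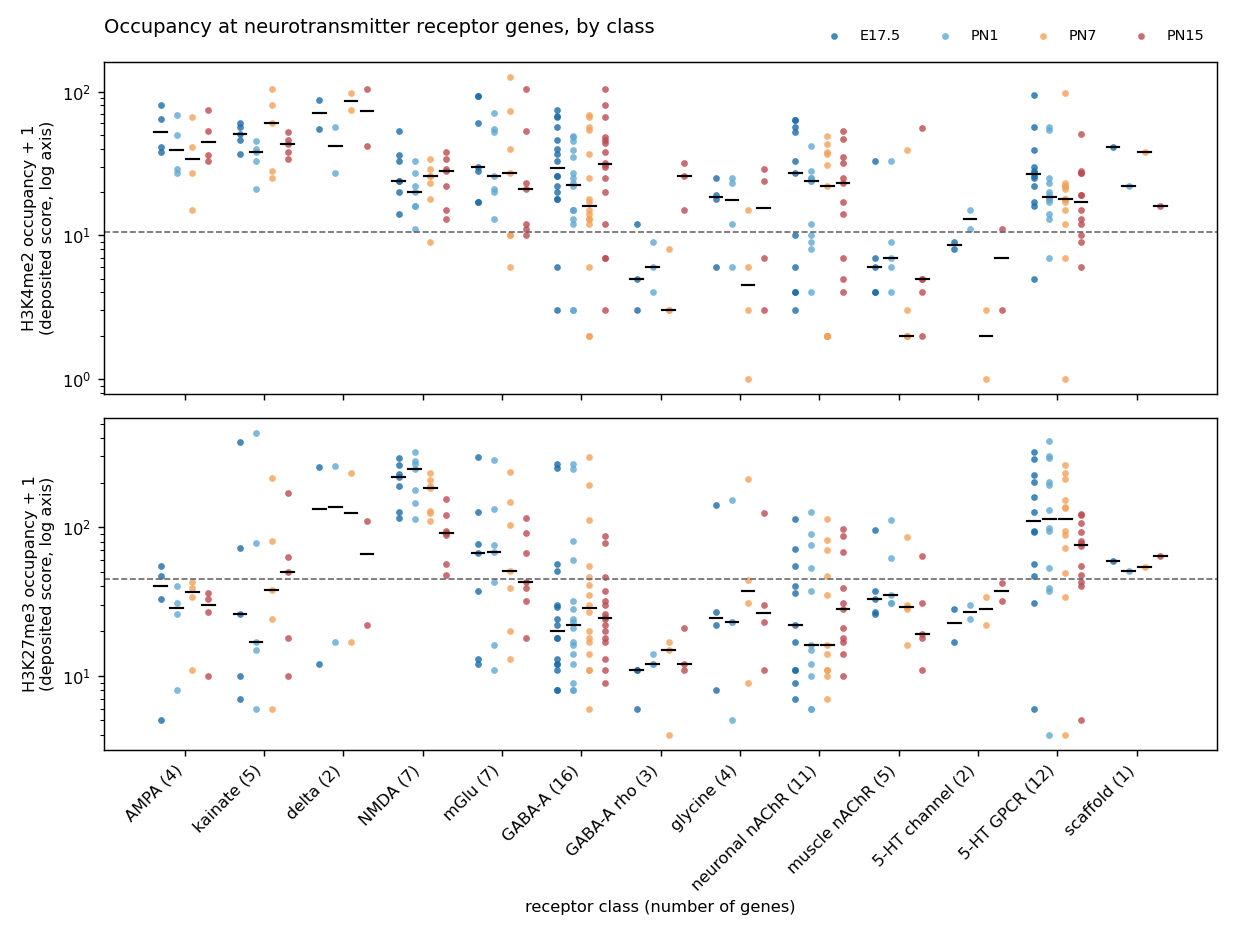
Normalized occupancy + 1 (log axis) of H3K4me2 (upper panel) and H3K27me3 (lower panel) at each member, by receptor class and stage; each point is a gene in 1 library, short bars are class medians and dashed lines are the background levels from olfactory receptor genes. All 7 NMDA receptor genes lie above the H3K27me3 line at every stage, and the 3 rho genes lie below it throughout.

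The classes of receptors differed in H3K27me3. All 7 NMDA receptor genes were above background at all 4 stages, with ranges of 114 to 291, 112 to 323, 109 to 233 and 47 to 154 in the order of the stages. Among the AMPA receptor genes, Gria2 (54) and Gria3 (46) were just above background at E17.5 and below it from PN1 on, and Gria1 and Gria4 were below it throughout. The AMPA receptor genes had H3K4me2 occupancies of 37 to 80 at E17.5, above those of most NMDA receptor genes (13 to 52). H3K27me3 was above background at 10 of the 12 G protein-coupled serotonin receptor genes but at neither Htr3a nor Htr3b, the serotonin-gated channels. It was also found at 3 of 5 kainate, 4 of 7 metabotropic glutamate, 5 of 16 GABA-A, 4 of 11 neuronal nicotinic and 2 of 5 muscle nicotinic genes, at Grid1 of the delta receptors, at Glra1 of the 4 glycine receptor genes and at none of the 3 rho genes. These classes hold few genes, and no test of the differences between them was made.

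**Figure D2:**
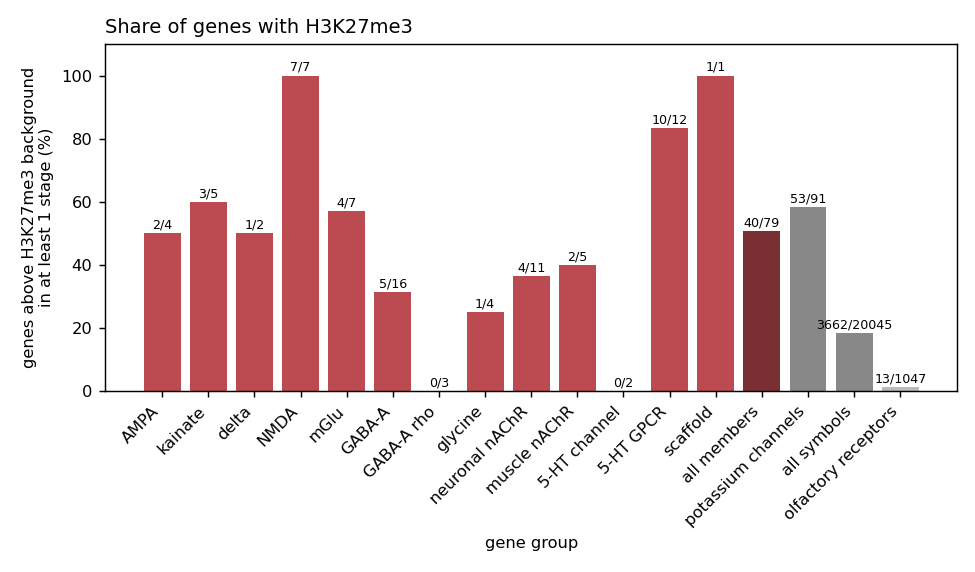
Share of genes (percent) above the H3K27me3 background in at least 1 of the 4 stages, for each receptor class, all members, the compared gene families and all symbols; the numbers above the bars are genes above background of all genes in the group. Members as a whole (40 of 79) are near the potassium channel subunits (53 of 91), with NMDA receptor genes (7 of 7) at the top and rho genes (0 of 3) at the bottom.

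Among the largest H3K27me3 occupancies were those of Grik3, Htr6, Grin2a, Htr1a and Gabrd. At Grik3 the 4 libraries, in the order of the stages used from here on, gave H3K27me3 occupancies of 373, 431, 213 and 169. Htr6, a serotonin receptor that raises cyclic AMP, had 319, 378, 232 and 120. For the serotonin receptor gene Htr1a the series was 289, 302, 209 and 121. Both marks were above background at every stage for Grik3, Htr6 and Htr1a. Members with large H3K4me2 sums were Grm8, Grm7, Htr1b, Gria2 and Gabrb2, which reached 74 to 94 in the first stage and 50 to 104 in the last. Of these, Grm7 and Gabrb2 had H3K27me3 occupancies no higher than 28 at any stage, whereas Grm8 had 91 to 148 and Htr1b 38 to 80.

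Changes from E17.5 to PN15 were determined as log2 ratios of the occupancies, each with 1 added, relative to the median change of all symbols (0.13 for H3K4me2 and 0 for H3K27me3). A gene was counted as risen or fallen when this was at least 2-fold and the larger occupancy was at least 20. H3K4me2 rose at 2 members, 2.53%, compared with 1.99% of all symbols, and fell at 17 members, 21.5%, compared with 5.35% of all symbols. Since H3K4me2 fell more often at genes with H3K27me3, the members were also divided by it. Of the 40 members with H3K27me3, H3K4me2 fell at 12, 30.0%, compared with 18.3% of all such symbols and 8 of 53 potassium channel subunits. Of the 30 members with H3K4me2 alone, it fell at 5, 16.7%, compared with 3.59% of all such symbols and 3 of 25 potassium channel subunits, 12%. The count of falls depended on the scaling. When the 4 libraries were brought to the same distribution by quantile normalization, 10 members fell and 6 rose, compared with 3.28% and 2.25% of all symbols. Without the relation to the median of all symbols 13 fell and 3 rose, compared with 4.42% and 2.89%. At a limit of 3-fold 2 members fell, 2.53%, compared with 1.90% of all symbols. Of the 17 falls, 9 were still counted with quantile normalization.

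The genes of G protein-coupled serotonin receptors accounted for 7 of the 17 falls (Htr1b, Htr1d, Htr1f, Htr2a, Htr2c, Htr4, Htr5b), and their median change was −1.09. With quantile normalization 2 of these 7 (Htr1b and Htr2c) were still counted, and without the relation to the median of all symbols 6 were, all but Htr1b. At Htr2c, a receptor coupled to phospholipase C, the H3K4me2 series was 38, 22, 21 and 14 (change −1.51). At Htr4 it was 25, 12, 16 and 9 (−1.51). The other 5 serotonin receptor genes of this kind changed by −0.29 to 0.13. Of these, Htr1a, Htr5a, Htr6 and Htr7 were above the H3K27me3 background at every stage, and Htr2b, which had neither mark, had H3K4me2 values of 0 to 6. Among the 7 genes that fell, Htr1d, Htr2a, Htr2c and Htr5b were also above the H3K27me3 background at every stage, and Htr1b, Htr1f and Htr4 were not.

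Metabotropic glutamate receptor genes gave 3 further falls. Grm2 and Grm3, which encode the receptors of group II, had H3K4me2 occupancies of 27, 19, 26 and 9 (change −1.62) and of 59, 51, 39 and 22 (−1.52). Grm4, of the presynaptic group III, went from 29 and 25 at E17.5 and PN1 to 5 and 10 at PN7 and PN15 (−1.58). The other genes of group III differed from it, since Grm7 had 92, 54, 72 and 104 (0.04) and Grm8 had 92, 70, 125 and 52 (−0.94), which was just within the limit. Grm6, the receptor of ON bipolar cells, is no member. Its H3K4me2 occupancy was 30 at E17.5 and 33 at PN15, while its H3K27me3 fell from 451 to 121.

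The nicotinic genes Chrna3 and Chrnb4 encode subunits that are often assembled together, and they lie next to each other on chromosome 9 with TSS 22.0 kb apart, next to Chrna5 (45.7 kb from Chrna3). At Chrna3 (chr9:54859150-54874366, mm9) H3K4me2 was 56, 27, 42 and 24 (change −1.32), and at Chrnb4 (chr9:54875963-54896351) it was 62, 41, 36 and 31 (−1.11). The fall at Chrnb4 was near the limit, which it missed without the relation to the median of all symbols (−0.98) and with quantile normalization (−0.998). At Chrna5, H3K4me2 was 51 at E17.5 and 52 at PN15 (−0.11). Of these neighbours, Chrnb4 passed the limit in H3K27me3 (6 to 38, change 2.48). The H3K27me3 values of Chrna3 (54 to 96, 0.82) and Chrna5 (112 to 67, −0.73) stayed within it. Chrna4, a main subunit of nicotinic receptors in brain, also fell in H3K4me2 (62, 23, 48 and 22, change −1.59), with H3K27me3 of 70, 89, 81 and 86. Chrna7 (26 to 46, change 0.67) and Chrnb2 (32 to 34, −0.05) were within the limit. Chrnb3 and Chrna6, a pair of neighbours on chromosome 8, had low H3K4me2, with 9, 8, 1 and 16 at the former and 5, 11, 1 and 13 at the latter. H3K27me3 was not above background at either.

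The remaining falls of H3K4me2 were at Grin2b, Grin3a, Gabrq and Grid2ip. Grin2b (52, 32, 33 and 28) and Gabrq (21, 11, 14 and 11) were at the limit, with changes that just reached 2-fold. Neither was counted without the relation to the median of all symbols (−0.87 for both) or with quantile normalization (−0.82 for Grin2b and −0.46 for Gabrq). The falls at Grin3a (32 to 12, change −1.48) and Grid2ip (40 to 15, change −1.49) were larger. Grid2ip has 2 entries in the table that differ by up to 30, so its values depend on the TSS that is used.

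The larger of the rises of H3K4me2 was at Gabrr2. At this gene, whose product forms GABA receptors known from the axon terminals of bipolar cells, the 4 libraries gave 4 (95% counting interval 1.51 to 7.72), 3, 2 and 31 (21.1 to 44.0), a change of 2.54. The first 3 stages were below background and only PN15 was above it. Counting intervals are exact Poisson intervals and cover counting error only. For H3K4me2 at PN7 and PN15 and for H3K27me3 at E17.5 they assume that a score of 1 is 1 read, which could not be checked. Gabrr1, with a TSS 69.5 kb from that of Gabrr2 (chr4:33219496-33250563 and chr4:33149974-33182840, mm9), had 2, 5, 2 and 14 (change 2.19), and Gabrr3 on chromosome 16 had 11, 8, 7 and 25 (0.98). Neither was counted, Gabrr1 because its largest value was under 20 and Gabrr3 because it was just within the fold limit. The 3 rho genes thus all had their highest H3K4me2 at PN15 and no H3K27me3 above background. Members of other classes had both traits too, among them Chrna6, Chrnb1, Chrnb3 and Gabrg1. The share of all symbols with both traits was not determined.

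**Figure D3:**
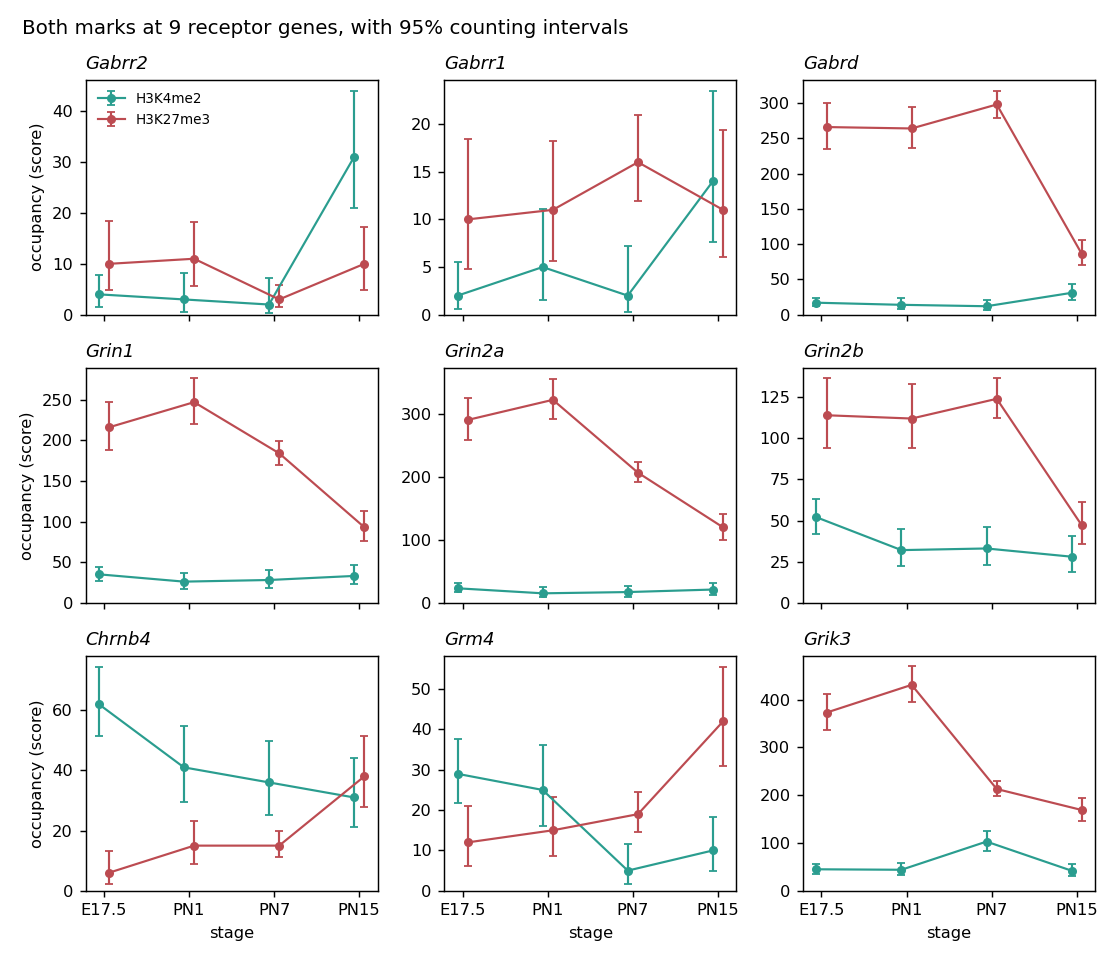
Normalized occupancy (score) of H3K4me2 and H3K27me3 at the 4 stages for 9 receptor genes; points are single libraries and bars are 95% counting intervals. Gabrr2 rises in H3K4me2 to 31 at PN15. Gabrd, Grik3 and the 3 NMDA receptor genes have less H3K27me3 at PN15 than at E17.5. With quantile normalization 3 of all 79 members are counted as fallen in H3K27me3, and the relative change of Grik3 turns to 0.046. Chrnb4 and Grm4 have more H3K27me3 at PN15, with less H3K4me2.

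H3K27me3 fell from E17.5 to PN15 at 16 members, 20.3%, compared with 8.96% of all symbols. It rose at 4 members, 5.06%, compared with 4.52% of all symbols. Because a fall can only be seen where the mark is present, the 36 members above the H3K27me3 background at E17.5 were set beside all symbols of that kind. Of the 36 members 15 fell, 41.7%, compared with 48.3% of the 2807 symbols, and 24 of 44 potassium channel subunits fell, 54.5%. The median log2 ratio was −0.78 over the 36 members, −0.97 over the 2807 symbols and −1.13 over the potassium channel subunits, and lower values at PN15 than at E17.5 were found at 32 of the 36 members, 2522 of the 2807 symbols and 43 of the 44 potassium channel subunits. The share of falls among the receptor genes was thus near that of all symbols with the mark, and nothing particular to them is read from it. With quantile normalization, 2 of the 36 members fell and 2 rose, compared with 19.5% and 4.88% of the 2807 symbols, and of all 79 members 3 fell and 5 rose, compared with 5.32% and 5.26% of all symbols. Relative to the median of the 2807 symbols, 0 of the 36 members fell and 4 rose, compared with 8.27% and 9.08% of those symbols. Of all 79 members 0 then fell and 19 rose, compared with 1.45% and 13.2% of all symbols.

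The genes of the NMDA receptor were lower at PN15 in 7 of 7 cases, which is near the 2522 of 2807 over all symbols with the mark, and 5 of these falls passed the 2-fold limit. At Grin1 (chr2:25146701-25174707, mm9) the H3K27me3 occupancies were 216 (188 to 247), 247, 184 and 93 (76.6 to 113), a change of −1.21, with H3K4me2 between 26 and 35 at all stages. At Grin2a, a glutamate-binding subunit of mature synapses, H3K27me3 was 291, 323, 207 and 120 (−1.27). Grin2b, the corresponding subunit of young synapses, had 114, 112, 124 and 47 (−1.26). Grin3a and Grin3b fell from 263 to 88 (−1.57) and from 188 to 56 (−1.73). Grin2c went from 229 to 154 (−0.57) and Grin2d from 125 to 91 (−0.45), both within the limit. For Grin2d, the TSS of Kdelr1 lies within 5 kb, so that its window can hold reads of another gene.

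Among GABA-A receptor genes, H3K27me3 fell at Gabra5 and Gabrd, which encode subunits of receptors outside synapses. Gabrd had 266 (235 to 300), 264, 298 and 86 (70.2 to 105), a change of −1.62, and Gabra5 had 251, 246, 193 and 77 (−1.69). The H3K4me2 at Gabrd went from 17 to 31 (0.70) and that at Gabra5 from 25 to 24 (−0.19). Gabrg3, whose TSS is 123 kb from that of Gabra5 on chromosome 7, had an H3K27me3 occupancy of 11 at E17.5. Further falls were at Htr1a, Htr5a, Htr6 and Htr7, at Grm5, at Grid1, at Grik3 (change −1.14, which turned to 0.046 with quantile normalization), and at Chrnb1, a subunit of the muscle receptor, which went from 26 to 10 without passing background. With quantile normalization H3K27me3 was counted as fallen at 3 of the 79 members. Most of the H3K27me3 falls named for NMDA, GABA-A and other receptor genes thus depended on the scaling.

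The 4 rises of H3K27me3 were at Chrnb4 (6 to 38, change 2.48), Gabrr3 (5 to 20, 1.81), Grm4 (12 to 42, 1.73) and Grik4 (25 to 62, 1.28). Only Grik4, a kainate receptor subunit, passed background at PN15. Olfactory receptor genes, which set the background, also went up, with a median change of 0.51 and 33 of 1047 counted as risen, 3.15%. At Chrnb4 the stages had 6 (2.20 to 13.1), 15, 15 and 38 (27.9 to 51.6). At Grm4 they had 12 (6.2 to 21.0), 15, 19 and 42 (30.9 to 55.6).

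The calls of both marks were then set side by side. Of the 17 members in which H3K4me2 fell, H3K27me3 fell at 2 (Grin2b and Grin3a), rose at 2 (Chrnb4 and Grm4) and stayed within the limits at 13. Over all symbols, H3K27me3 fell at 175, rose at 148 and stayed within the limits at 749 of the 1072 in which H3K4me2 fell. The 2 common falls were 11.8% of the H3K4me2 falls and 12.5% of the 16 H3K27me3 falls, compared with 16.3% and 9.74% over all symbols, so these counts were near those of genes in general. The fall of H3K4me2 at Grin2b and that at Chrnb4 depended on the scaling, as given above. Across the 79 members the rank correlation of the changes was −0.08. The correlation of the levels of both marks was 0.14, 0.14, 0.33 and 0.08 in the order of the stages. The points are genes measured in the same libraries and are given as a description.

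**Figure D4:**
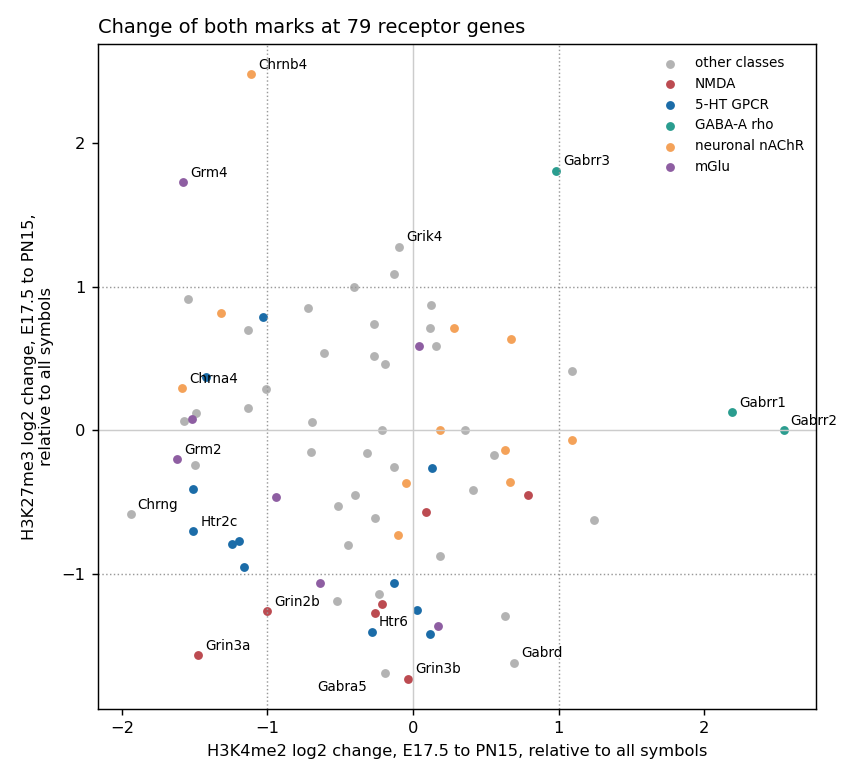
Log2 change from E17.5 to PN15 of H3K4me2 (horizontal) and H3K27me3 (vertical) at the 79 members, each relative to the median of all symbols; points are genes, colours are receptor classes and dotted lines mark 2-fold changes. Of the 16 genes in which H3K27me3 fell, all but Grin2b and Grin3a stay short of a 2-fold fall of H3K4me2, and Chrnb4 and Grm4 are at the upper left.

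The changes between neighbouring stages were then examined. From E17.5 to PN1, in which the median of all symbols was −0.42, H3K4me2 rose relative to it at Grin3b (13 to 21) and fell at Grin3a (32 to 10), compared with 0.234% and 0.449% of all symbols. Without the relation to this median 0 members rose and 6 fell (0.0948% and 4.63% of all symbols). From PN1 to PN7, 17 members rose, compared with 13.1% of all symbols, and 5 fell (among them Gabrg1, Glra3, Grm4 and Htr2a), compared with 2.11%. From PN7 to PN15, Gabrr2 and Glra3 rose, compared with 3.65% of all symbols, and 18 members fell, compared with 10.7%. The steps into and out of PN7 rest on the H3K4me2 library that stood apart, and their medians over all symbols were −0.50 and 1. Without the relation to these medians, 6 members rose and 7 fell from PN1 to PN7 (3.89% and 6.43% of all symbols), and 10 rose and 7 fell from PN7 to PN15 (26.6% and 1.15%), so the balance of both steps turned over. With quantile normalization 7 members rose and 5 fell from PN1 to PN7 (4.53% and 4.77% of all symbols), and 1 rose and 16 fell from PN7 to PN15 (4.31% and 5.22%), which kept the balance of both steps. H3K4me2 was lower at PN7 than at both neighbouring stages in 42 members, 53.2%, compared with 60.9% of all symbols. It was higher at PN7 than at both in 17 members, 21.5%, compared with 9.19% of all symbols and 25 of 91 potassium channel subunits. Grik3 (45, 44, 103 and 42) and Grik4 (36, 20, 79 and 37) were among them.

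In the table the mark is written H3K27me3b for PN7, an added letter that the sources used here do not explain, and both steps that involve PN7 rest on that column. H3K27me3 neither rose nor fell at any member from E17.5 to PN1 by this rule, compared with 0.898% and 0.284% of all symbols, and with a limit of 1.5-fold 1 member rose and 2 fell, compared with 4.51% and 1.43% of all symbols. From PN1 to PN7 it rose at Glra4, Grik4 and Htr1b, compared with 2.52% of all symbols, and fell at 0 members, compared with 2.4%. Without the relation to the median, H3K27me3 rose at 1 member and fell at 2 in this step (1.92% and 3.32% of all symbols). With quantile normalization it rose at 1 and fell at 0 (1.95% and 2.11%). From PN7 to PN15 it rose at Chrnb4 and Grm4, compared with 2.69%, and fell at 9 members (among them Gabra5, Gabrd, Grid1, Grin2b, Grin3a, Htr5a and Htr7), compared with 5.82%. All 9 were among the 36 members above background at PN7, 25%, compared with 29.8% of the 2981 symbols of that kind. With quantile normalization 5 members rose and 3 fell in this step, compared with 3.40% and 2.52% of all symbols. Of the 36 members with H3K27me3 at E17.5, 17 had their highest value at PN1, 47.2%, compared with 66.8% of all symbols of that kind, 9 had it at PN7, 25%, compared with 16.2%, 7 had it at E17.5, 19.4%, compared with 15.1%, and 3 had it at PN15, 8.33%, compared with 1.92%.

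Subunit pairs that are known to be exchanged as synapses mature were compared side by side. H3K4me2 went from 52 to 28 at Grin2b and from 23 to 21 at Grin2a, while the changes of H3K27me3, −1.26 and −1.27, were nearly equal. For the glycine receptor, H3K4me2 at Glra2, the early subunit, was 18, 11, 2 and 6, and at Glra1, the adult subunit, it was 17, 22, 14 and 28. Glra1 also had H3K27me3 of 140, 152, 210 and 124, whereas Glra2 had 21 to 30. For the early subunits of the GABA-A receptor, H3K4me2 went from 56 to 79 at Gabra2 and from 17 to 6 at Gabra3. Chrng, the fetal subunit of the muscle receptor, had H3K27me3 of 95, 111, 85 and 63, and Chrne, the adult subunit, had 25, 34, 28 and 18. H3K4me2 was at most 8 at both, which is below background.

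The CpG content around the TSS was determined from the mouse genome mm9 over 1 kb. A promoter was called CpG-rich when at least 50% of its bases were G or C and the ratio of observed to expected CpG was at least 0.6. By this definition 25 of the 79 members, 31.6%, were CpG-rich, compared with 48.2% of the 19345 symbols with a position. H3K27me3 was above background at 17 of the 25 CpG-rich members, 68.0%, and at 23 of the other 54, 42.6%. Over all symbols the shares were 20.2% and 16.9%, and over the potassium channel subunits 73.7% and 47.2%. H3K4me2 was above background at all 25 CpG-rich members, compared with 98.7% of CpG-rich symbols, and at 43 of the other 54, 79.6%, compared with 49.6%. The rank correlation of the CpG ratio with the largest occupancy was 0.48 for H3K27me3 and 0.59 for H3K4me2 over the 79 members, as a description. All 3 rho genes were outside the CpG-rich class, with ratios of 0.15 for Gabrr2, 0.27 for Gabrr1 and 0.27 for Gabrr3, and the ratio was 0.93 for Grik3 and 0.98 for Grin1. There were exceptions on both sides, since Htr1a (ratio 0.43) had an H3K27me3 occupancy of up to 302 and Grik2 (0.62) had at most 23.

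**Figure D5:**
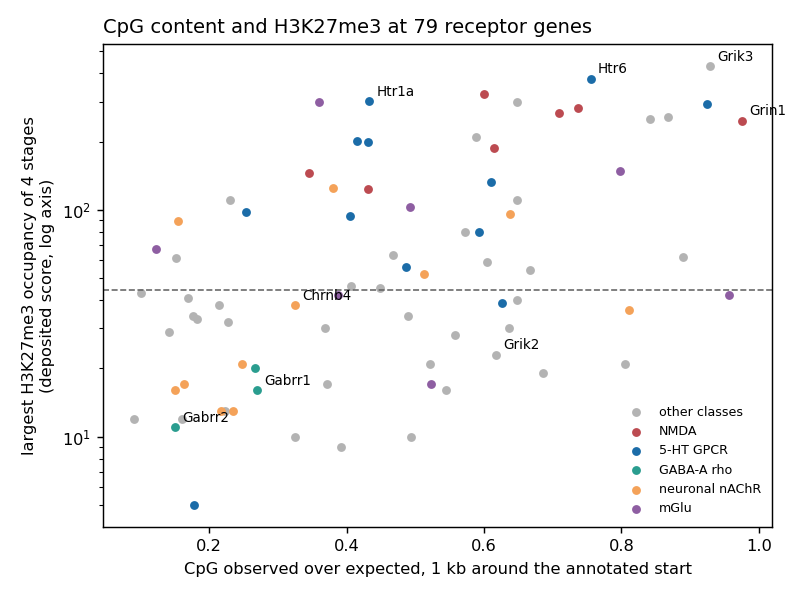
Ratio of observed to expected CpG within 1 kb around the annotated TSS (horizontal) and the largest H3K27me3 occupancy of the 4 stages (vertical, log axis) for the 79 members; points are genes and the dashed line is the background. Values above 200 occur at low and at high ratios, such as 0.43 for Htr1a and 0.98 for Grin1, and the rho genes Gabrr1 and Gabrr2 are at the lower left.

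In the RefSeq windows, TAATCC, the letters recognized by the homeodomain factors Crx and Otx2, was searched on both strands. It was found in 7.06% of all windows and in 3 of the 67 windows of members, at Gabrr2, Gabra2 and Chrne. TATAAA was found in 13.6% of all windows and in 6 of the 67. In the Gabrr2 window printed above TAATCC is on the strand opposite to the gene. These matches are descriptions of the sequence only.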

How the data were processed

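ChIP-Seq for H3K4me2 and H3K27me3 was performed on whole retinas of 4 stages (1 library for each). According to the methods of the study and the labels, the authors mapped reads to the mouse genome mm9 with Bowtie 0.12.4, removed reads with several positions, assumed fragments of 190 bp, and summed the reads within 2.5 kb of each RefSeq TSS. What the authors deposited is a score, the sum divided by the mapped reads of its library and rounded to a whole number, so that no count model could be used. The table has 25152 entries of 20045 symbols. Of the 10 samples of the series, the rd1/rd1 library and the anti-GFP control have no column in it and were not analysed here. The marks were taken from the sample titles, since the labels give the antibody catalogue numbers the other way round from the methods.

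Where a symbol had several entries, the one with the largest total of 8 values was used, which concerned 14 members, of which 3 had entries that differed. The value of 1 read was recovered from the spacing of the rounded scores in 5 of the 8 libraries (H3K4me2 0.535 at E17.5 and 0.946 at PN1; H3K27me3 0.82 at PN1, 0.313 at PN7 and 0.873 at PN15). In the other 3 it could not be resolved and the depth is unknown, and a score of 1 was there taken as 1 read. Counting intervals are exact Poisson 95% intervals and cover counting error only.

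Changes are log2 ratios with a pseudocount of 1 minus the median over all symbols, counted from 2-fold with a larger value of at least 20. With 1 library per stage no p-value was calculated, and counts of members are given beside the share of all symbols that passed the same rule. The members and all gene lists were chosen with earlier results of these data known, and the limits for CpG-rich promoters were set after the data had been seen. Genes were named by a rule: the 6 members with the largest called rises and falls and with the largest sums for each mark, up to 6 members without either mark, members known from retinal circuits, and members that account for a small count. Other members were named after their values had been seen, and some genes that the rule covers are not reported here. Gene positions are those of the mm9 gene annotation (79 of 79 members found), and promoter sequences are those of RefSeq on GRCm38.p6 (56 of 79 found).

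The alternatives were fold limits of 1.5 and 3, no centring, quantile normalization, a pseudocount of 5, a minimum of 10 or none, the mean over entries, other backgrounds and, added after the data had been seen, centring on symbols with H3K27me3 at E17.5. The counting of changes and the recovery of the value of 1 read were tested on simulated data. Calculations were run in Python 3.11.15 (pandas 2.3.3, numpy 2.4.6, matplotlib 3.10.9, scipy 1.17.1).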

Additional observations from a re-analysis of the deposited data

How the results depend on the processing

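No paired analysis was possible because there was 1 library for each mark and stage, and no replicate could be left out. Of 178 recomputed counts of members, 106 stayed within 1.5 times the reported count and 72 did not. Counts are members of 79, and the percentage after each count is the share of all symbols with the same setting. With a fold limit of 1.5, H3K4me2 rose at 7 (7.54%) from E17.5 to PN15, rose at 3 (0.933%) and fell at 6 (4.63%) from E17.5 to PN1, rose at 27 (25.9%) from PN1 to PN7 and rose at 4 (8.64%) and fell at 31 (18.9%) from PN7 to PN15, while H3K27me3 rose at 9 (7.71%) and fell at 26 (13.7%) from E17.5 to PN15, rose at 1 (4.51%) and fell at 2 (1.43%) from E17.5 to PN1, rose at 12 (5.73%) and fell at 3 (5.88%) from PN1 to PN7 and rose at 5 (5.25%) and fell at 27 (12.3%) from PN7 to PN15. With a limit of 3, H3K4me2 rose at 1 (0.673%) and fell at 2 (1.90%) from E17.5 to PN15, rose at 0 (0.0848%) and fell at 0 (0.0798%) from E17.5 to PN1, rose at 4 (2.85%) and fell at 1 (0.998%) from PN1 to PN7 and rose at 1 (1.33%) from PN7 to PN15, while H3K27me3 fell at 3 (3.10%) from E17.5 to PN15, rose at 0 (0.893%) from PN1 to PN7 and rose at 0 (1.38%) and fell at 2 (0.918%) from PN7 to PN15. Without centring, H3K4me2 rose at 0 (0.0948%) and fell at 6 (4.63%) from E17.5 to PN1, rose at 6 (3.89%) from PN1 to PN7 and rose at 10 (26.6%) and fell at 7 (1.15%) from PN7 to PN15, while H3K27me3 rose at 1 (1.92%) and fell at 2 (3.32%) from PN1 to PN7. With quantile normalization, H3K4me2 rose at 6 (2.25%) and fell at 10 (3.28%) from E17.5 to PN15, fell at 2 (0.604%) from E17.5 to PN1, rose at 7 (4.53%) from PN1 to PN7 and rose at 1 (4.31%) from PN7 to PN15, while H3K27me3 fell at 3 (5.32%) from E17.5 to PN15, rose at 1 (1.95%) from PN1 to PN7 and rose at 5 (3.40%) and fell at 3 (2.52%) from PN7 to PN15. With a pseudocount of 5, H3K4me2 rose at 0 (0.12%) and fell at 0 (0.239%) from E17.5 to PN1, rose at 11 (8.97%) and fell at 3 (1.67%) from PN1 to PN7 and rose at 1 (4.84%) from PN7 to PN15, while H3K27me3 rose at 1 (1.85%) from PN1 to PN7 and rose at 1 (2.12%) from PN7 to PN15. With a minimum of 10, H3K4me2 rose at 4 (2.67%) from E17.5 to PN15, rose at 3 (1.18%) from E17.5 to PN1, fell at 9 (4.22%) from PN1 to PN7 and rose at 5 (5.01%) from PN7 to PN15, while H3K27me3 rose at 2 (3.02%) from E17.5 to PN1, rose at 5 (4.61%) and fell at 1 (5.03%) from PN1 to PN7 and rose at 5 (9.88%) from PN7 to PN15. With no minimum, H3K4me2 rose at 5 (5.17%) from E17.5 to PN15, rose at 7 (13.7%) from E17.5 to PN1, fell at 17 (26.6%) from PN1 to PN7 and rose at 6 (15.9%) from PN7 to PN15, while H3K27me3 rose at 2 (5.77%) from E17.5 to PN1, rose at 6 (8.44%) and fell at 1 (9.33%) from PN1 to PN7 and rose at 5 (15%) from PN7 to PN15. With centring on symbols above the H3K27me3 background at E17.5, which was chosen after seeing the data, H3K27me3 rose at 19 (13.2%) and fell at 0 (1.45%) from E17.5 to PN15. With a background of 20 for both marks, H3K27me3 was present at 61 (34.8%) in any stage and at 53 (26.4%), 55 (25.9%) and 56 (26.9%) at PN1, PN7 and PN15, and H3K4me2 at 40 (59.3%) at PN1, and with the 95th percentile 5 (21.7%) had neither mark. The changes of single named genes moved by less than counting error in 436 of 495 cases and by more in 58. In 1 case a called change turned, that of H3K27me3 at Grik3, to 0.046 with quantile normalization. Of the 436 cases, 110 came from no centring and 110 from the mean over entries, which can shift most values only slightly. Quantile normalization left 91 cases and moved 18. Centring on symbols above the H3K27me3 background at E17.5 left 15 and moved 40. The counting error rests on a score of 1 taken as 1 read in 3 libraries. The cause of these shifts was not tested. Without replicates and with unknown depth in 3 libraries, differences of few units at values near the background cannot be told from counting error.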

Other observations

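The partners of the receptors, listed as 4 other receptors, 15 auxiliary subunits and 23 scaffold proteins, were all in the table. H3K4me2 was above background in at least 1 stage at 41 of the 42, compared with 72.6% of all symbols, and H3K27me3 at 18, compared with 18.3%, with both marks in a stage at 18, compared with 16.3%. H3K27me3 was found at 9 of 15 auxiliary subunits and at 7 of 23 scaffold genes. From E17.5 to PN15, H3K4me2 rose at 2 partners, compared with 1.99% of all symbols, namely at Dlg4, which encodes PSD-95, the main scaffold of excitatory synapses (80, 44, 63 and 210 in the order of the stages), and at Homer3 (42, 46, 63 and 97). It fell at Cacng4, Cacng8 and Dlgap3, compared with 5.35% of all symbols. The fall at Cacng4 (77 to 41, change −1.03) just reached the limit. H3K27me3 rose at 2 partners, compared with 4.52% of all symbols, namely at Cacng4, an auxiliary subunit of AMPA receptors (13, 23, 90 and 71), and at Grip1, which binds AMPA receptors (8, 11, 42 and 55), and fell at 8 partners, compared with 8.96%. Of all symbols above the H3K27me3 background at E17.5, 48.3% fell. That share does not match the 8 falls, since Cnih2 and Dlg1 among them were not above background at any stage. The other falls (Grm6, Gabbr2, Shisa9, Ric3, Dlgap2 and Grip2) were above it at E17.5. Of these, the GABA-B receptor gene Gabbr2 had 235, 277, 191 and 76, and Dlgap2, a scaffold gene, had 421, 503, 410 and 144. Glrb, the beta subunit shared by glycine receptors, and Gphn, which encodes gephyrin, had H3K27me3 of at most 12 throughout. The partners were listed with earlier results of these data known, and these values are descriptions of single libraries.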
